A study of Mus musculus with 24 samples.

Results

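The cytosolic ribosomal protein genes were followed in RNA from eGFP-positive cells sorted from mouse embryonic pancreas, across maternal diets and embryo genotypes. They were chosen by name as the protein-coding genes called Rpl or Rps and a digit, together with Rplp0, Rplp1, Rplp2 and Rpsa, without the Rps6k kinases and without names holding -ps. This gave 85 of the 40173 genes in the count table. By name prefix alone, 51 were counted to the large subunit and 33 to the small one, here and below. The remaining name match, Rps19bp1, encodes a protein that binds Rps19 and is not part of the ribosome. In all, 84 of the 85 passed the filter on low counts. Rpl39l did not, with 0 to 4 counts in each of the 21 pancreatic libraries compared.

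The ribosome is built from ribosomal RNA and one copy of nearly every ribosomal protein, so cells that grow or secrete much protein hold large amounts of these mRNAs. Many of the mRNAs begin with a run of pyrimidines through which mTOR signalling and the protein Larp1 control their translation. Acinar cells of the pancreas, which make digestive enzymes, are known for their abundant ribosomes. Most of the genes have left processed pseudogenes in the genome, which share sequence with the parent gene.

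The embryos came from a line in which eGFP replaces the coding part of Ngn3 (Neurog3), the transcription factor that starts the endocrine islet programme. Per the study's design, eGFP-positive cells of Ngn3eGFP/eGFP embryos are progenitors that have not become islet progenitors, and those of Ngn3eGFP/+ embryos are committed endocrine cells. The Ngn3eGFP/+ dams, 6 weeks old, received a high-fat diet (HFD), a low protein diet (LPD) or a normal diet (ND) from 2 weeks before mating with Ngn3eGFP/+ males on control diet until collection at E15.5. There were 3 titled mutant and 3 titled control libraries on HFD, 4 and 4 on LPD, and 4 and 3 on ND, all of pooled sexes. One more ND library, titled control and described as mixed in genotype, and 2 libraries of hypothalamic cells entered no comparison. The titles and the genotype field contradict each other, since the field gives Ngn3eGFP/+ for the titled mutant libraries and Ngn3eGFP/eGFP for the titled controls. Neurog3 followed the titles, at 6.13 to 23.2 CPM (counts scaled to the library total) in titled mutant libraries and 98.95 to 276 CPM in titled controls. The groups are therefore named by title. Nothing states that libraries of a group came from separate litters, so the p-values measure the spread between libraries, which may be in part technical. A chi-square of the counts per degree of freedom was 4.4 between mutant HFD 1 and 2 and 4.7 between mutant LPD 1 and 2. It was 17.3 to 796 in all other pairs of libraries within a group. These closest pairs were counted as separate libraries, and whether they share material was not tested.

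Total counts were 17922240 to 44688814 per library. Summed CPM of 14 endocrine markers was 33.2 to 457 in titled mutant and 2569 to 9645 in titled control libraries. Summed CPM of 12 acinar markers was 7155 to 36060 in titled mutant and 6606 to 30610 in titled control libraries, none of the markers being at 0 in a whole pancreatic group, so the sorted cells labelled endocrine islet progenitors held acinar transcripts in every library. Mutant ND 2, mutant ND 3, control ND 2 and the mixed ND library stood apart, with 72.2% to 80.2% duplicate reads and 32.7% to 66.95% of their counts in the noncoding gene Gm26917. The other pancreatic libraries had 37.7% to 65.5% duplicates and 9.21% to 18.7% of counts in that gene. The number in the library name was 25 or above for 5 of the 7 ND libraries compared (all but control ND 4 and mutant ND 1) and below 25 for every HFD and LPD library.

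In 65 of the 85 genes the median over the 21 libraries was 100 FPKM or more (fragments scaled by depth and by the gene length deposited with the table). That length can exceed the mRNA, as in Rps15a with 6270 bases and an annotated mRNA of 640 bases, so the order between genes rests on it. Rplp1, which with Rplp2 forms the acidic stalk that recruits translation factors, had the highest median, 1767 FPKM (range 588 to 2357). It was followed by Rpl36 at 1108 FPKM, the very short Rpl41 at 892 FPKM, Rplp0, the base of the stalk, at 890 FPKM, and Rps2, a core protein near the mRNA entry, at 850 FPKM. The ranges of these 5 genes over libraries overlapped. The lowest medians were 2.82 FPKM for Rps10, 2.12 FPKM for Rpl36al, 2.03 FPKM for Rpl24, 0.241 FPKM for Rpl3l and 0 FPKM for Rpl39l. Rps10 and Rpl24 are core proteins of the subunits, and no source used here states how reads shared with their pseudogenes were counted, so the levels of such low members are uncertain. The 245 other rows with names of this pattern, which hold -ps or are not protein-coding, had 0.0177% to 0.0704% of the counts in the 21 libraries. Pseudogenes under other names were not counted.

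Paralogs sat below their partners in FPKM. The median over the 21 libraries was 27.2 FPKM for Rpl7l1 and 324 FPKM for Rpl7, 18.8 FPKM for Rpl22l1 and 47.7 FPKM for Rpl22, and 113 FPKM for Rps27l and 182 FPKM for Rps27. The ranges over libraries overlapped for the last 2 of these pairs. Rpl3l, known from heart and skeletal muscle, had at most 32 counts in a pancreatic library, while Rpl3 had a median of 201 FPKM. Rpl39l, known from the testis, was listed at a median of 0 FPKM and Rpl39 at 114 FPKM.

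**Figure D1:**
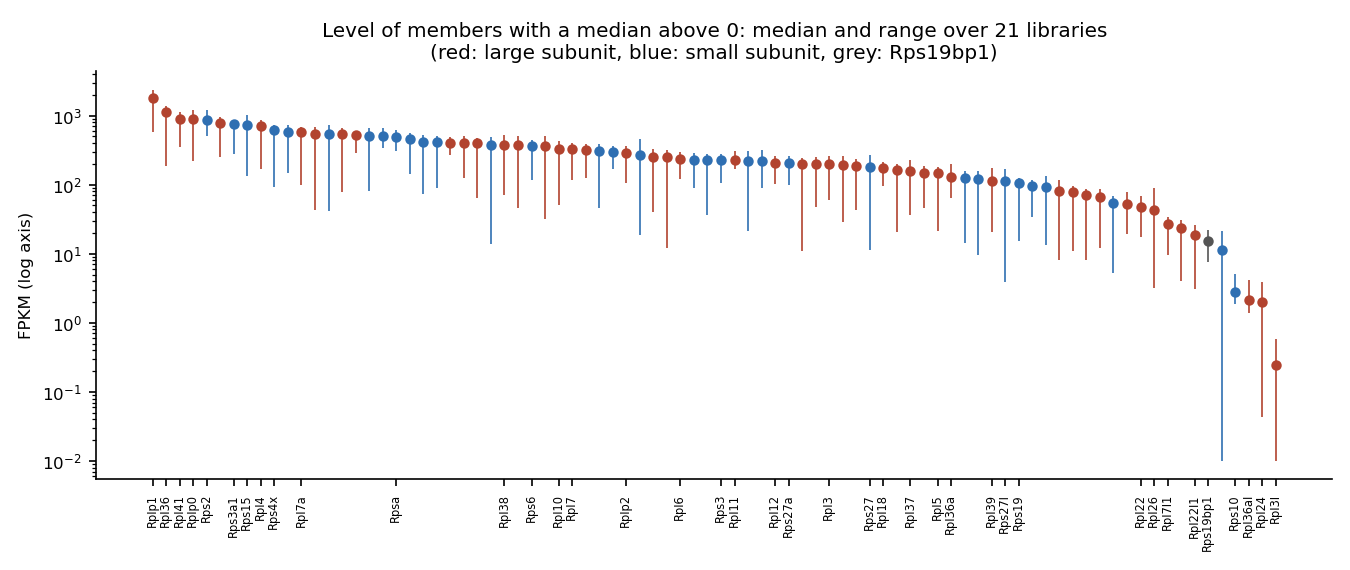
Median FPKM of the ribosomal protein genes with a median above 0 over the 21 pancreatic libraries, on a log axis, with lines from the lowest to the highest library (a lowest value of 0 is drawn at 0.01) and names for the genes covered by the naming rule. Most genes lie above 100 FPKM, with Rplp1 highest at 1767 FPKM and a few genes below 3 FPKM.

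The sequences around the transcript start are shown because the pyrimidine run there is the feature this family is known for. RefSeq windows on GRCm38.p6 were found for 65 of the 85 genes. The longest run of C and T touching the 5 bases on either side of the annotated start was taken. It was at least 5 bases long in 35 of the 65 genes (53.8%), against 31.5% of 27025 genes, and at least 10 bases long in 15 (23.1%), against 4.86% of all genes. The median run was 5 bases in the family and 3 bases in all genes. The first base of the transcript itself lay in a run of at least 5 bases in 19 of the 65 genes (29.2%), against 9.95% of all genes. The 30 bases around the start follow for members with long runs and for members named below, 5′ to 3′ on the gene's strand, with the run in capitals.
Rpl7a (chr2:26910792-26910821, plus strand): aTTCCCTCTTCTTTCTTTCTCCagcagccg
Rpl27a (chr7:109519180-109519209, plus strand): gacttcgtgagCTCCTCCCTTTTCCCTTTC
Rps18 (chr17:33955651-33955680, minus strand): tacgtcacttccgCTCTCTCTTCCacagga
Rps6 (chr4:86857353-86857382, minus strand): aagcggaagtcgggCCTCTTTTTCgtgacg
Rplp2 (chr7:141447636-141447665, plus strand): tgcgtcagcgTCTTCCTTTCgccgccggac
Rps2 (chr17:24720048-24720077, plus strand): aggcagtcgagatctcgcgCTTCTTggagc
Rplp0 (chr5:115559452-115559481, plus strand): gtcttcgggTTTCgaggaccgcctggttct
Rpl26 (chr11:68901551-68901580, plus strand): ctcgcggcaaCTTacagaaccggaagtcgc
Rpl11 (chr4:136053379-136053408, minus strand): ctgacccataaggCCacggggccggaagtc
The run spanned 21 bases in Rpl7a, 10 bases in Rps6 and Rplp2, 3 bases in Rpl26 and 2 bases in Rpl11. An annotated start can differ from the start used in these cells.

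In the 300 bases from 250 before to 50 after the start, searched on both strands, the letters CCGGAA, the core of ETS-type motifs, occurred in 33 of 65 genes (50.8%) and in 15.2% of all genes. ATGGCG, as in YY1-type motifs, occurred in 27.7% of the family and in 9.24% of all genes. The TATA-box letters TATAAA occurred in 9.23% and 14.2%, the E-box CACGTG in 7.69% and 7.24%, and GCATGC in 7.69% and 7.94%. No searched motif contains another, although their matches may overlap. A match is a description of letters, not of binding.

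As a share of counts without Gm26917 and mitochondrial transcripts, the family was highest in titled mutant cells of the HFD and LPD embryos and lowest in the ND controls. On HFD the share was 5.96%, 5.75% and 6.24% in the mutant libraries, and 5.44%, 4.94% and 5.20% in the control libraries. On LPD it was 6.27%, 6.18%, 5.85% and 5.79% in mutant libraries, and 3.35%, 4.32%, 4.65% and 5.21% in control libraries. On ND it was 5.48%, 4.77%, 5.77% and 5.39% in mutant libraries, and 3.19%, 3.47% and 3.85% in control libraries. On this measure mutant and control libraries did not overlap on any of the 3 diets. As a share of all counts they overlapped on ND, where mutant ND 2 had 1.58%, below the 2.14% to 3.26% of the controls. Among controls, the HFD and ND libraries did not overlap, and the LPD libraries spanned from within the ND range to within the HFD range.

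The means were 5.98% ± 0.245 in mutant HFD (SD, n = 3), 5.19% ± 0.249 in control HFD (n = 3), 6.02% ± 0.240 in mutant LPD (n = 4), 4.38% ± 0.784 in control LPD (n = 4), 5.35% ± 0.422 in mutant ND (n = 4) and 3.50% ± 0.330 in control ND (n = 3). The 2 hypothalamic libraries had lower shares, 1.60% in the mutant (95% Wilson interval 1.599% to 1.609%) and 1.38% in the control (1.377% to 1.386%), and the mixed ND library had 3.03% (3.015% to 3.036%). These intervals cover counting error only. In a bulk library, fewer cells of a type and less RNA per cell cannot be told apart.

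**Figure D2:**
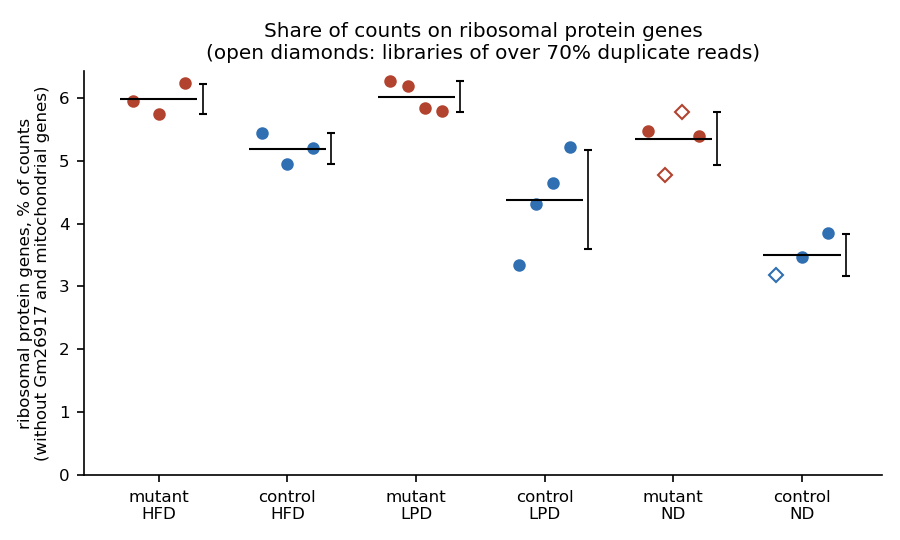
Share of counts held by the 85 ribosomal protein genes in each library, in percent of counts without Gm26917 and mitochondrial genes, by group. Points are libraries, open diamonds those of over 70% duplicates, lines are means and bars SD. Control ND libraries lie between 3.19% and 3.85% and mutant LPD libraries between 5.79% and 6.27%.

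On the normal diet, 44 of the 84 tested members rose in titled mutant cells against titled controls and none fell (edgeR quasi-likelihood test, adjusted p under 0.05). Over all tested genes 13.7% rose and 13.3% fell. The members that rose were 26 large-subunit genes, 17 small-subunit genes and Rps19bp1, with log2 fold changes of 0.51 to 1.49. The median log2 fold change was 0.63 over the family and 0.01 over all genes, and 82 members were positive. In CPM scaled by the TMM method, mutant and control libraries did not overlap for 36 members, all higher in the mutant (42.9%, against 11.7% of all genes).

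Rps2 had the largest passing fold change on ND. It had 1474, 4800, 2772 and 1543 CPM, scaled by the TMM method, in the mutant libraries, against 1175, 759 and 884 CPM in the control libraries. The lowest mutant library was above every control, and mutant ND 2 and 3, which have over 70% duplicates, were the highest. The TMM factor, which scales the library total, was 0.38 in mutant ND 2 and 0.79 in mutant ND 3. In the ND controls it was 0.91 to 1.23. This scaling raises the CPM of mutant ND 2 and 3, and whether groups overlap can depend on it. The log2 fold change of Rps2 was 1.49 (SE 0.30, adjusted p = 0.00089). Without the ND libraries of over 70% duplicates it was 0.79, which passed.

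Rpsa, a small-subunit protein also known as the laminin receptor, had the same order of libraries. Its levels were 1354, 5037, 2481 and 1742 CPM in mutant ND and 1296, 832 and 914 CPM in control ND, without overlap and with a log2 fold change of 1.39 (SE 0.31, adjusted p = 0.00226). Without the libraries of over 70% duplicates it was 0.74 and passed. Rpl11, which with Rpl5 and 5S RNA binds Mdm2 when ribosome assembly is disturbed, had 619, 1444, 1065 and 756 CPM in mutant ND and 596, 375 and 383 CPM in control ND. Its log2 fold change was 1.11 (SE 0.22, adjusted p = 0.00086) and 0.78 without those libraries, which passed.

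Rpl12, a protein of the stalk base, was more even among controls. It had 653, 969, 963 and 775 CPM in mutant ND and 414, 381 and 405 CPM in control ND. All mutant libraries exceeded all controls, with a log2 fold change of 1.07 (SE 0.18, adjusted p = 0.000193). Rps6, the protein that S6 kinases phosphorylate, had 538, 490, 785 and 650 CPM in mutant ND and 312, 335 and 367 CPM in control ND. The groups did not overlap, and the log2 fold change was 0.86 (SE 0.16, adjusted p = 0.000374). In FPKM, which counts Gm26917 in the total, mutant ND 2 was below every control in both genes. It had 103 FPKM for Rpl12 and 118 FPKM for Rps6.

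The 3 stalk genes all rose on ND. Rplp1 had 779, 768, 812 and 762 CPM in mutant ND, against 396, 446 and 489 CPM in control ND, without overlap. In FPKM, mutant ND 2 had 588, below the 720 to 1187 of the controls. Rplp1 changed by 0.81 on the log2 scale (adjusted p = 0.00446). Rplp0 averaged 1404 ± 344 CPM in mutant ND and 816 ± 64.2 CPM in control ND (SD, n = 4 and 3; log2 fold change 0.78, adjusted p = 0.00568). Rplp2 averaged 594 ± 85.8 CPM in mutant ND and 350 ± 18 CPM in control ND (log2 fold change 0.76, adjusted p = 0.00598).

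The smallest passing changes on ND were those of Rpl4, Rpl22, Rpl38 and Rpl7a. Rpl4 averaged 1164 ± 194 CPM in mutant ND and 815 ± 102 CPM in control ND, its groups overlapped, and its log2 fold change of 0.51 (adjusted p = 0.0216) turned to -0.026 when limma was run on log2(FPKM + 1). Rpl22 averaged 133 ± 6.90 CPM in mutant ND and 90.7 ± 10.7 CPM in control ND (log2 fold change 0.55, adjusted p = 0.0109). Rpl38 and Rpl7a changed by 0.60 (adjusted p = 0.0484) and 0.62 (adjusted p = 0.0371), calls that were lost in 17 and 7 of the 21 fits that left out 1 library. Rpl5 at 0.57 (adjusted p = 0.081) and Rps19, the gene most often mutated in human Diamond-Blackfan anaemia, at 0.61 (adjusted p = 0.076) did not pass, and Rpl5 was -0.061 on the log2(FPKM + 1) scale.

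Among paralog pairs on ND, Rpl3 (log2 fold change 0.70, adjusted p = 0.00365) and Rpl7l1 (0.80, adjusted p = 0.000228) rose. Rps19bp1 averaged 19.6 ± 1.83 CPM in mutant ND and 12.4 ± 1.78 CPM in control ND (0.66, adjusted p = 0.00569).

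Counts in this paragraph without a share of all genes have no background, and may have moved with all genes. The ND count rested on single libraries and on the scale. It was 68 without mutant ND 2, 34 without mutant ND 3 or control ND 2, 24 when only the ND libraries were fitted (3.71% of all genes rose in that fit), and 3 with limma on log2(FPKM + 1) (1.7% of all genes), where the median was 0.037 in the family and -0.23 over all genes. FPKM is scaled to all counts, Gm26917 included, and limma was run without further scaling. That gene averaged 33.8% of counts in mutant ND and 19.3% in control ND. Summed acinar markers were 7155 to 25580 CPM in mutant ND and 6606 to 10890 CPM in control ND, and endocrine markers 33.2 to 83.4 CPM and 5086 to 9645 CPM. Marker sums, here and in the other comparisons, are scaled to all counts, Gm26917 included, unlike the TMM-scaled CPM of members. A high share of that gene lowers every other sum on this scale. The part of the markers in the result was not tested.

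On the low protein diet, 31 of the 84 members rose in mutant cells against controls and none fell, while 5.22% of all genes rose and 10.4% fell. They were 21 large-subunit and 10 small-subunit genes, with log2 fold changes of 0.49 to 0.72. The median was 0.54 over the family and 0.02 over all genes, and 83 members were positive. For 63 members (75.0%) every mutant library exceeded every control, against 13.6% of all genes. Of the 31 members, 28 had also risen on ND, which is 90.3% of the LPD and 63.6% of the ND list. Over all genes, 85.3% of the genes that rose on LPD and 32.5% of those that rose on ND were in both lists.

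Rplp0 had 1884, 1957, 1594 and 1470 CPM in mutant LPD, against 675, 1180, 1248 and 1210 CPM in control LPD. The groups did not overlap, control LPD 1 was far below the other controls, and the log2 fold change was 0.68 (SE 0.18, adjusted p = 0.0131). Rps6 had 672, 702, 558 and 610 CPM in mutant LPD and 329, 494, 468 and 485 CPM in control LPD, also without overlap (log2 fold change 0.52, adjusted p = 0.0168).

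Rpl39, which lines the exit tunnel of the nascent chain, had the largest passing change on LPD. It had 198, 175, 222 and 171 CPM in mutant LPD and 69.4, 99.0, 123 and 175 CPM in control LPD. Control LPD 4 lay within the mutant range. The log2 fold change was 0.72 (SE 0.21, adjusted p = 0.0253), next to 0.70 for Rpl36a (adjusted p = 0.0107) and 0.67 for Rpl10 (adjusted p = 0.0315), which joins late in the assembly of the large subunit.

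The smallest passing changes on LPD were 0.49 for Rps3 (adjusted p = 0.0150), a protein of the mRNA entry channel, 0.49 for Rpl7l1 (adjusted p = 0.00985), 0.50 for Rpl4 (adjusted p = 0.0243) and 0.50 for Rpl18 (adjusted p = 0.0479), the last of which was lost in 17 of the 21 fits without 1 library. Rplp1 rose by 0.67 (adjusted p = 0.0152). Rplp2 at 0.47 (adjusted p = 0.0853), Rpsa at 0.63 (adjusted p = 0.149), Rpl5 at 0.49 (adjusted p = 0.139), Rpl11 at 0.46 (adjusted p = 0.138) and Rps19 at 0.53 (adjusted p = 0.133) did not pass.

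The LPD count was 10 without control LPD 1 or without mutant LPD 2, 19 without mutant LPD 1, 59 without mutant ND 2, and 1 with limma on log2(FPKM + 1), where 0.965% of all genes rose. It was 0 without mutant HFD 1, mutant LPD 1 and mutant LPD 2, the titled mutant libraries with the most Ins2 counts. That choice was made after seeing the data. Apart from the limma count, these counts have no share of all genes beside them and may have moved with all genes. Summed acinar markers were 26480 to 34470 CPM in mutant LPD and 7667 to 18570 CPM in control LPD, and their part in the result was not tested.

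On the high-fat diet, none of the 84 members passed between mutant and control cells, while 0.14% of all genes rose and 5.64% fell. DESeq2 and limma also called 0 members. The median was 0.28 over the family and -0.01 over all genes, and 81 members were positive. For 52 members (61.9%) every mutant library exceeded every control, against 17.5% of all genes.

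Rps6 had 680, 677 and 696 CPM in mutant HFD, against 525, 499 and 551 CPM in control HFD. Every mutant library was higher, by a log2 fold change of 0.38 (SE 0.17, adjusted p = 0.286). Rplp0 had 1770, 1635 and 1844 CPM in mutant HFD, against 1441, 1257 and 1497 CPM in control HFD, also without overlap (log2 fold change 0.32, adjusted p = 0.582). Rplp1, Rplp2, Rpsa, Rpl5, Rpl11 and Rps19 had log2 fold changes of 0.24 to 0.34, none passing.

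The outcome on HFD depended on which libraries set the spread. When only the 6 HFD libraries were fitted, 23 members rose, as did 5.74% of all genes. When the replicate number was added as a block to those 6 libraries, a fit chosen after seeing the data, 55 members rose, with a median of 0.24. In that blocked fit 13.1% of 21045 tested genes rose and 18.3% fell. Rps6 was then 0.34 (adjusted p = 0.000296), Rplp0 0.28 (adjusted p = 0.000827) and Rplp2 0.21 (adjusted p = 0.0173). With the block in the fit over all groups, 0 members passed. Summed acinar markers were 34580 to 36060 CPM in mutant HFD and 24880 to 30610 CPM in control HFD, without overlap, and their part in the difference was not tested.

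**Figure D3:**
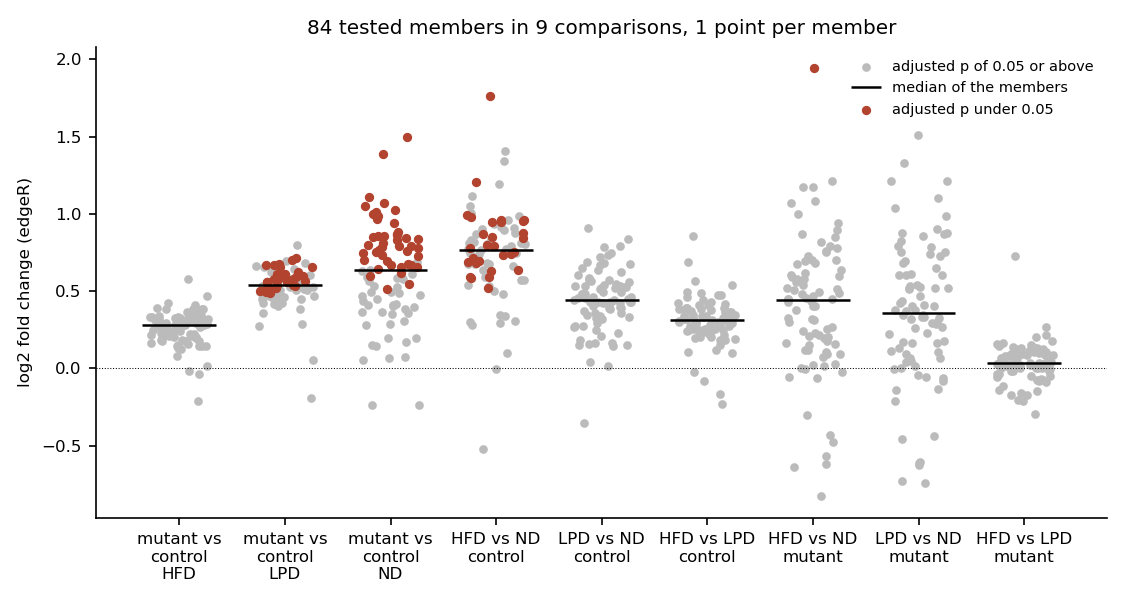
Log2 fold changes of the tested ribosomal protein genes, titled mutant over titled control on each diet and diet over diet within a genotype, with the members that pass an adjusted p of 0.05 marked. The median is 0.28 on HFD, 0.54 on LPD and 0.63 on ND for mutant over control.

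Among titled control cells, 29 of the 84 members rose on HFD against ND and none fell, with 3.1% of all genes rising and 0.808% falling. They were 18 large-subunit and 11 small-subunit genes, with log2 fold changes of 0.52 to 1.76. The median was 0.77 over the family and -0.01 over all genes. For 76 members (90.5%) every HFD control exceeded every ND control, against 17% of all genes.

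Rpl26, a large-subunit protein at the exit of the tunnel, had the largest change. It had 115, 74.2 and 64.9 CPM in control HFD, against 13.5, 28.6 and 32.6 CPM in control ND. All HFD controls were above all ND controls, the log2 fold change being 1.76 (SE 0.43, adjusted p = 0.0286, 3.40-fold). Rpl37 had 368, 206 and 320 CPM in control HFD and 105, 133 and 150 CPM in control ND, without overlap (log2 fold change 1.2, SE 0.27, adjusted p = 0.0168).

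Rps15 had 569, 363 and 515 CPM in control HFD and 199, 246 and 283 CPM in control ND, with a log2 fold change of 0.99 (adjusted p = 0.0339). Rplp1 had 987, 719 and 927 CPM in control HFD and 396, 446 and 489 CPM in control ND, with a log2 fold change of 0.98 (SE 0.21, adjusted p = 0.0134). In both genes the HFD controls all lay above the ND controls, and control HFD 2 was the lowest of its group. Rplp0 (0.78, adjusted p = 0.0421), Rps6 (0.64, adjusted p = 0.0369), Rpl3 (0.73, adjusted p = 0.0247) and Rpl39 (0.96, adjusted p = 0.0339) also rose.

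The smallest passing changes were 0.52 for Rpl7l1 (adjusted p = 0.0496) and 0.59 each for Rpl6 (adjusted p = 0.0333), Rps3a1 (adjusted p = 0.0286) and Rps27a (adjusted p = 0.0416), which encodes ubiquitin fused to a ribosomal protein. Leaving out 1 library ended the call in 18 of 21 fits for Rpl7l1, 13 for Rps27a and for Rplp0, 10 for Rps6, 8 for Rpl6 and 3 to 7 for the other members named as passing here. Rplp2 was 0.68 (adjusted p = 0.0677), Rpl5 0.75 (adjusted p = 0.0976), Rps19 0.77 (adjusted p = 0.108), Rps27l, a paralog of Rps27 known as a p53 target, 1.34 (adjusted p = 0.128), and Rpl11 0.29 (adjusted p = 0.54), none passing. Rpsa was 0.50 (adjusted p = 0.428) and became -0.032 when the mixed library was counted as a control.

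Counts here that lack a share of all genes have no background, and may have moved with all genes. The count in control HFD against control ND depended on single libraries. It was 0 without control HFD 1, control ND 2 or control ND 3, 3 without control HFD 3, 9 without control HFD 2, 16 without mutant LPD 2, 17 without control ND 4, 45 without control LPD 1 and 72 without mutant ND 2. The diets also differ in library number. With a term for numbers of 25 or above it was 1. Without the ND libraries of over 70% duplicates it was 13. DESeq2 called 56 members higher (5.29% of all genes) and limma on log2(FPKM + 1) called 0 (0.402% of all genes). Summed acinar markers were 24880 to 30610 CPM in control HFD and 6606 to 10890 CPM in control ND, and their part in the result was not tested.

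Among titled mutant cells, Rpl26 alone of the 84 members passed between HFD and ND, where 0.961% of all genes rose and 1.9% fell. It had 130, 117 and 71.5 CPM in mutant HFD, against 41.5, 12.2, 22 and 34 CPM in mutant ND. The groups did not overlap (log2 fold change 1.94, SE 0.40, adjusted p = 0.0175, 3.84-fold). It no longer passed without the ND libraries of over 70% duplicates or with the library-number term, nor without mutant HFD 1 or mutant HFD 2. The count was 12 without mutant ND 1, with no share of all genes beside it. DESeq2 called 12 members higher and 1 lower, with 3.85% of all genes higher and 6.2% lower. Of the fixed genes, Rplp1 was 0.45, Rplp0 0.32 and Rps6 0.15. Rpsa was -0.57 and Rpl11 -0.48, but without the ND libraries of over 70% duplicates these were 0.23 and 0.0365, and none of the 5 passed. The median was 0.44, with 73 members positive. Every mutant HFD library exceeded every mutant ND library for 45 members, against 11.3% of all genes, and lay below for 1 member, against 7.86% of all genes. Summed acinar markers were 34580 to 36060 CPM in mutant HFD and 26480 to 34470 CPM in mutant LPD, both above the 7155 to 25580 CPM in mutant ND. These sums are scaled to all counts, of which Gm26917 held 16.3% to 66.95% in mutant ND. The part of the markers in these diet comparisons was not tested.

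On LPD against ND, 0 members passed in either genotype with edgeR. In mutant cells the median was 0.36, and DESeq2 called 19 higher and 2 lower (3.94% and 5.59% of all genes) and limma none. In edgeR 0.41% of all genes rose and 0.643% fell. The mutant libraries did not overlap for 34 members, all higher on LPD, against 7.37% of all genes. In control cells the median was 0.44, DESeq2 and limma called 0 members and edgeR called 0.0% of all genes. The control libraries did not overlap for 1 member, higher on LPD, against 2.41% of all genes. Rpl26 had 76.6, 62.1, 59.8 and 58.5 CPM in mutant LPD, all above the mutant ND libraries (log2 fold change 1.21, adjusted p = 0.0805). It had 23.1, 32.4, 62.8 and 68.9 CPM in control LPD, overlapping control ND (log2 fold change 0.91, adjusted p = 0.741). Leaving out mutant ND 1 gave 22 passing members in mutant cells, and leaving out control LPD 1 gave 13 in control cells. These counts have no share of all genes beside them and may have moved with all genes.

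Between HFD and LPD, 0 members passed in either genotype with edgeR, DESeq2 or limma. Over all genes edgeR called 0.0%, DESeq2 called 16 higher and 8 lower in control cells and 1 lower in mutant cells, and limma 2 higher in control cells. The median was 0.03 in mutant cells and 0.31 in control cells. Every HFD library exceeded every LPD library for 6 members in mutant cells, against 6.94% of all genes, and for 21 members in control cells, against 5.48%. Mutant HFD and mutant LPD libraries overlapped in the stalk genes. Rplp0 averaged 1750 ± 106 CPM in mutant HFD and 1726 ± 232 CPM in mutant LPD, and Rplp1 1064 ± 143 CPM in mutant HFD and 1046 ± 57.4 CPM in mutant LPD (SD, n = 3 and 4).

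The difference of the diet effects between genotypes was tested as an interaction, and 0 members passed in any of 3 contrasts with edgeR, DESeq2 or limma. Over all genes edgeR called 0.0% in each. For HFD against ND the median difference, mutant minus control, was -0.36, with 77 of 84 members negative. The smallest p belonged to Rpl12 (-0.78, SE 0.26, adjusted p = 0.64). For LPD against ND the median was -0.11, and for HFD against LPD it was -0.26. On the log2(FPKM + 1) scale, which counts Gm26917 in the total, the first 2 medians had the opposite sign, 0.08 and 0.38. The data therefore do not show that the diet effect on the family differed by genotype.

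**Figure D4:**
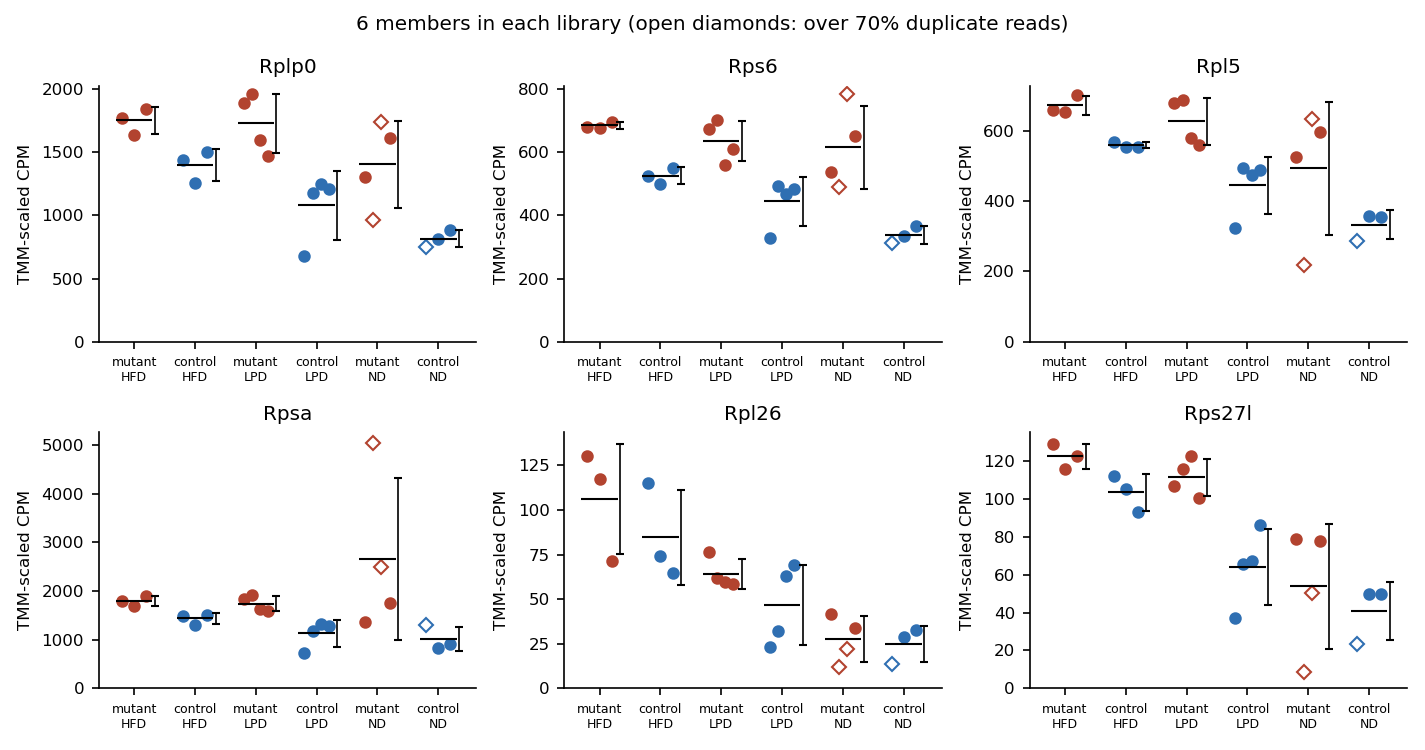
TMM-scaled CPM of 6 ribosomal protein genes in every library, by group, on linear axes from 0, with open diamonds for libraries of over 70% duplicates, lines for means and bars for SD. Rpl26 is at 71.5 to 130 CPM in mutant HFD and at 12.2 to 41.5 CPM in mutant ND, while Rpsa reaches 5037 CPM in mutant ND 2.

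The members varied unevenly among the ND libraries. For the 79 members with a mean of at least 500 counts, the log2 ratio of each library to the mean of the others in its group had an SD over members of 0.56, 0.93, 0.20 and 0.38 for mutant ND 1 to 4 and of 0.45, 0.25 and 0.24 for control ND 2 to 4. The 14 HFD and LPD libraries had 0.083 to 0.205, and on this measure mutant ND 3, with 72.2% duplicates, lay within the range of those 14. The ratios of mutant ND 1, 3 and 4 have mutant ND 2 among the libraries they are set against. Their SDs therefore cannot be ranked against the duplicate share. Set against mutant ND 1 and 4 alone, mutant ND 3 had log2 ratios from -0.86 for Rpl31 to 0.88 for Rps2. In mutant ND 2 the same SD was 0.87 over all 7712 genes of 20 CPM or more and 1 over 77 mitochondrial ribosomal protein genes, close to the SD in the family. Rps27l had 78.7, 8.44, 50.5 and 77.9 CPM in mutant ND and 23.2, 49.8 and 49.8 CPM in control ND. Mutant ND 2 and control ND 2 were each the lowest of their group. Rpsa and Rps2 showed the reverse.

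Set against the low-duplicate ND libraries of its own group, mutant ND 2 had log2 ratios of -3.20 for Rps27l, -2.64 for Rpl27 and -2.60 for Rpl31, and of 1.71 for Rpsa, 1.67 for Rps2 and 1.44 for Rpl37a. Control ND 2 had -1.10 for Rps27l, -1.05 for Rpl27 and -1.29 for Rpl31, and 0.57 for Rpsa, 0.52 for Rps2 and 0.71 for Rpl37a. Across the 79 members the ratios of these 2 libraries, whose baselines have no library in common, correlated at Pearson r = 0.90, and 69 members lay on the same side of the median. Mutant ND 3 and control ND 2 correlated at r = 0.93. Members are not independent replicates, and the libraries share high duplication and Gm26917 content. The ratio correlated with the mean level of a member in the HFD and LPD groups at Spearman rho = 0.39 to 0.49 in these 3 libraries. Its correlation was -0.26 to -0.37 with the number of -ps rows named after the member, and 0.086 to 0.20 with the GC content of the mRNA.

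**Figure D5:**
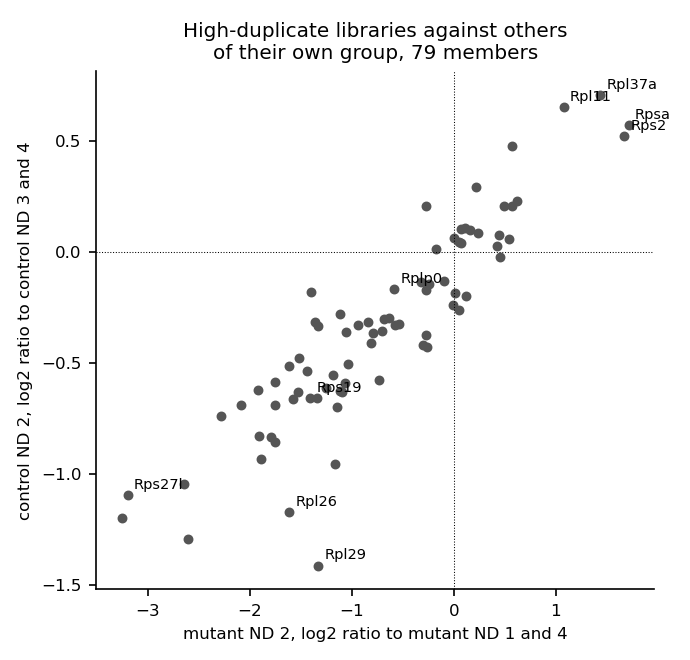
Log2 ratio of each ribosomal protein gene in mutant ND 2 (x axis) and control ND 2 (y axis) to the low-duplicate libraries of the same group, with a point per gene for 79 genes. Rps27l is low and Rpsa and Rps2 are high in both mutant ND 2 and control ND 2.

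Of the 34 tested members with a pyrimidine run of at least 5 bases that came within 5 bases of the start, 19 rose in mutant against control cells on ND and 14 on LPD, and 11 rose in control HFD against control ND. Of the 30 tested members with a shorter run, the counts were 14, 8 and 10. The medians were 0.63 and 0.56 on ND, 0.54 and 0.52 on LPD, and 0.75 and 0.76 for HFD over ND in controls, differences that were not tested. Of the 30 members that carry snoRNA genes in their introns, 17 rose on ND, 14 on LPD and 13 in control HFD. Over all tested genes 13.7%, 5.22% and 3.1% rose in these comparisons.

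Genes that build and serve the ribosome are given by list for the same comparisons and for mutant against control on HFD. Over all tested genes, 13.7% rose in mutant ND, 5.22% in mutant LPD and 0.14% in mutant HFD against controls. In control HFD against control ND 3.1% rose. Of 40 ribosome biogenesis genes, 33 rose in mutant ND, 16 in mutant LPD and 0 in mutant HFD against the controls of the same diet, and 12 rose in control HFD against control ND, with none falling. They included Nop56, a core protein of box C/D snoRNPs, at 177 CPM in mutant ND and 93.1 CPM in control ND (log2 fold change 0.93, adjusted p = 7.56e-05), and the nucleolar chaperone Npm1 at 665 CPM in control HFD and 349 CPM in control ND (0.93, adjusted p = 0.00883). Of 38 translation factors, 18, 7, 0 and 6 rose in these 4 comparisons. Rack1, a scaffold bound to the small subunit, had 957 CPM in control HFD and 540 CPM in control ND (0.82, adjusted p = 0.0246).

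Of 77 mitochondrial ribosomal protein genes, 36 rose and 1, Mrpl1, fell in mutant ND (median log2 fold change 0.44). In mutant LPD 9 mitochondrial ribosomal protein genes rose, in mutant HFD 0, and in control HFD 5. Over all tested genes 13.7% rose in mutant ND, 5.22% in mutant LPD, 0.14% in mutant HFD and 3.1% in control HFD. The family median was above that of the mitochondrial genes in each comparison, 0.63 beside 0.44 on ND and 0.54 beside 0.30 on LPD. This difference was not tested. Of 31 proteasome genes 10 rose in mutant ND and 0 in the other 3 comparisons, and of 16 cell cycle genes 16 rose in mutant ND, 14 in mutant LPD, 0 in mutant HFD and 7 in control HFD.

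Of 25 growth signalling genes, 7 rose and 6 fell in mutant ND, where 13.7% of all genes rose and 13.3% fell. Larp1 had 712 CPM in mutant ND and 403 CPM in control ND (log2 fold change 0.82, adjusted p = 0.00208). Mdm2 (-0.34, adjusted p = 0.0348) and Cdkn1a (-0.62, adjusted p = 0.0125) were among the 6 that fell. Mycl fell in mutant cells on each diet, by 1.36 on HFD (adjusted p = 0.00204), 1.56 on LPD (adjusted p = 5.84e-05) and 1.29 on ND (adjusted p = 0.000482) on the log2 scale. The noncoding snoRNA host Gas5, itself a transcript with a pyrimidine start, rose to 165 CPM in mutant ND, against 89.9 CPM in control ND (0.88, adjusted p = 6.59e-05), and to 176 CPM in mutant LPD, against 115 CPM in control LPD (0.62, adjusted p = 0.00117).

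Over the 21 libraries, single members followed the summed level of the family closely in most cases. Pearson r of log2 CPM was 0.991 for Rps20, 0.988 for Rps18 and 0.982 for Rpl8, each of which is itself part of the sum, and 0.073 for both Rpl24 and Rpl36al. Among 11675 genes averaging 5 CPM or more, the 5 outside the family whose level was most like the sum were Gamt (r = 0.987), Cldn10 (0.984), Pgam1 (0.984), Tkt (0.983) and Aldh18a1 (0.982). The libraries share groups, depth and scaling, so these are descriptions.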

How the data were processed

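Total RNA of sorted eGFP-positive cells (50 ng, RNA integrity number above 7.5) was depleted of ribosomal RNA and sequenced as strand-specific libraries on a NovaSeq, per the labels' protocols. cutadapt 2.10, STAR 2.7.8a, featureCounts 2.0.2 and build GRCm38.p6 are named in the submitters' processing notes. No source used here states the strand setting or the treatment of reads that map to several places. The authors deposited whole-number counts per gene, FPKM per gene (recomputed from the counts and deposited gene lengths with a median relative difference of 5.3e-05) and a quality table with percent duplicate reads.

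For 26 genes, names turned into dates were restored, 31 repeated symbols were given suffixes, and 1 total line was left out. Genes were kept by edgeR's filterByExpr (23630 of 40173, 58.8%, at least 99.91% of the counts), scaled by TMM and tested with edgeR 4.0.16 (R 4.3.3), quasi-likelihood, on the 21 mapped pancreatic libraries with 6 groups. P-values were adjusted over all tested genes (Benjamini-Hochberg) and called under 0.05, with groups taken from the titles. The procedure was tested on simulated data. Python 3.11.15 and matplotlib 3.10.9 drew the figures.

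The members and gene lists were chosen with earlier results of these data known. Named members are the 4 largest and 4 smallest passing changes in each comparison with a mean of at least 5 CPM, the 5 highest and 5 lowest FPKM medians, members found in few libraries, the stalk genes, Rpsa, Rpl5, Rpl11, Rps6, Rps19, the paralog pairs and Rps19bp1. Rpl27, Rpl31, Rpl37a, Rps18, Rpl27a, Rps20 and Rpl8 were named after their values were seen. Other lists name up to 3 genes of smallest p, except Mrpl1, Mdm2 and Cdkn1a, named after their values were seen, and likeness names the 5 highest correlations.

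Same-numbered mutant and control HFD libraries deviated together (correlations of 0.107, 0.222 and 0.411), so the number was taken as pairing them, as a hint from the data. In the other comparisons at least 1 pair was under 0.1. Alternatives were DESeq2 1.42.0, limma 3.58.1 on log2(FPKM + 1), no filter, only the compared libraries, a replicate block, omission of libraries, Gm26917 share or library number as covariates and the mixed library as a control. Leaving out the 3 mutant libraries with the most Ins2 counts, and the block within the HFD libraries, were added after seeing the data. Rpl39l and Rpl3l had few counts, which limits the precision of their values. PCR duplicates are not independent molecules.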

Additional observations from a re-analysis of the deposited data

Results flagged for a closer look

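In 11 of 93 checks of groups of 4 libraries, 1 library lay apart from the other 3 by Dixon's criterion, which chance gives in about 1 in 20 single checks. The checks cover 29 members and the family's share in the same libraries. They are not independent, so their number cannot be weighed against that rate. In mutant ND 2 the lowest of its group were Rpl38 at 100.9 CPM (the others 174 to 183 CPM), Rpl39 at 78.8 CPM (137 to 145 CPM), Rpl4 at 875 CPM (1243 to 1286 CPM) and Rps19 at 185 CPM (452 to 496 CPM). That library had 79.4% duplicates.

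In control LPD 1 the lowest were Rplp0 at 675 CPM (1180 to 1248 CPM), Rpl3 at 313 CPM (524 to 561 CPM), Rpl4 at 787 CPM (1166 to 1216 CPM), Rpl5 at 324.5 CPM (475 to 494 CPM), Rps3 at 589.9 CPM (853 to 883 CPM) and Rps6 at 329 CPM (468 to 494 CPM). It was also the control LPD library with the lowest share of the family, 3.35%.

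In mutant LPD 4 the family held 4.69% of all counts, against 5.20% to 5.23% in the other mutant LPD libraries. Without Gm26917 and mitochondrial counts that library had 5.79% and was not apart.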

How the results depend on the processing

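The family's median log2 fold change stayed positive in mutant against control cells and in HFD or LPD against ND under every alternative run: 0.037 to 0.76 on ND, 0.16 to 0.32 on HFD, 0.33 to 0.64 on LPD and 0.61 to 0.90 for control HFD against control ND. Counts of passing members moved far more, and those given without a share of all genes have no background beside them. With DESeq2 they were 56 (control HFD against ND), 13 (mutant HFD against ND) and 21 (mutant LPD against ND), and with limma 3 on ND, 1 on LPD and 0 for HFD against ND in either genotype. With only the compared libraries they were 24 on ND, 23 on HFD, 66 for control HFD against ND (5.32% of all genes rose) and 0 for mutant HFD against ND. Without the ND libraries of over 70% duplicates they were 2 on HFD, 62 on LPD, 13 and 0 for HFD against ND in control and mutant cells. The Gm26917 covariate gave 54 and 0 and the library-number term 1 and 0 for these 2 comparisons. The mixed library as a control gave 19 on LPD. Without mutant HFD 1, LPD 1 and LPD 2 it was 0 on LPD, and 1 and 0 for HFD against ND in control and mutant cells.

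With the replicate block over all groups, 46 members passed on ND, 34 on LPD, 0 on HFD, 48 for control HFD against ND, 5 for mutant HFD against ND and 2 for mutant LPD against ND. Within the HFD libraries alone the block gave 55. Outside HFD at least 1 same-numbered pair in each comparison correlated under 0.1. So few pairs neither show nor exclude pairing by number.

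Leaving out 1 library at a time gave 34 to 68 on ND, 0 to 0 on HFD, 10 to 59 on LPD, 0 to 72 for control HFD against ND, 0 to 13 for control LPD against ND (13 without control LPD 1), 0 to 12 for mutant HFD against ND (0 without mutant HFD 1 or 2, 12 without mutant ND 1) and 0 to 22 for mutant LPD against ND (22 without mutant ND 1), and 0 in the remaining contrasts.

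Directions reversed for Rpl4 (-0.026) and Rpl5 (-0.061) on ND with limma, for Rpsa in control HFD against ND with the mixed library (-0.032), and in mutant HFD against ND for Rpsa and Rpl11 without the high-duplicate libraries (0.23 and 0.0365), with the Gm26917 covariate (0.20 and 0.0206) and, for Rpsa, with the library-number term (0.0213). The causes were not tested.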
